A study of Mus with 4 samples.

Results

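Pseudouridine (Ψ) was described at the sites of protein-coding transcripts in mouse cochlear tissue that lie outside the genes treated separately. Members were the sites whose RefSeq transcript has a coding identifier (NM or XM), leaving out Lars2, Gm46178, Gm15564, Gm53756, Rps12, Taf1d, Rabggtb, 2410002F23Rik, Otog, Otos, Triobp, Lrp2, Col2a1, Pmp22 and Syp. The rule gave 206 sites in 185 genes, out of 755 sites in 465 genes of the whole table. It used no level, but several of the genes left out held some of the highest coding levels, so comparisons with the rest of the table depend on that choice. That rest was mainly non-coding, with 505 sites in non-coding transcripts and 44 in the coding genes left out. Of the members, 101 were single positions and 105 were runs of adjacent positions, within which the assay does not say which uridine was modified. A RefSeq gene table matched all 206 sites to protein-coding genes, 185 by transcript identifier and 21 by symbol.

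The samples were whole cochleae of mice with the Otof c.1315 C>T (p.R439X) genotype, which puts a premature stop codon into the gene for otoferlin of the inner hair cells. The labels give 4 samples. The RESTART v3 pair, treated with a guide snoRNA system directed at that stop codon in the same genotype, was not analysed here, and the 2 untreated samples supply every value below. Strain, age and sex of the sequenced animals are not in the labels. The study states in general that its experiments used biological replicates. The labels do not say whether these samples came from separate animals or pools, so SDs describe the spread between these 2 samples only. The p-values come from exact tests on read counts and measure read sampling, not the spread between animals. Otof itself had no member site, and neither hair cells nor any other cell type was isolated. The table holds modified sites and no expression values, so cell type markers could not be checked. Myo15a, a myosin of hair cell stereocilia, had a site in replicate 1 alone, over 5 chemistry reads. In whole tissue, fewer cells of a type and less RNA per cell cannot be told apart, and a level is an average over all cells that express the transcript.

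Ψ is an isomer of uridine that keeps the same base pairing. In mRNA it is made by stand-alone synthases that read sequence and structure, and by dyskerin in box H/ACA particles that take their target from a guide snoRNA. In PRAISE, sulfite and bisulfite form an adduct on Ψ that reverse transcriptase skips, so that a modified position is read as a deletion. Each sample gave a chemistry library and a control library without the chemistry. The level of a site was the share of chemistry reads with a deletion minus that of control reads, in percentage points, written here as a percentage.

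The table lists a site for a replicate only where the authors' filters were met, so a site without a value has an unknown level there, and a site with few reads is listed only if its level was high. Members had values at 130 sites in replicate 1 and 158 in replicate 2, with 82 sites in both. Another 48 had a value only in replicate 1 and 76 only in replicate 2. The median number of chemistry reads was 97.5 in replicate 1 (range 5 to 21359) and 84.5 in replicate 2 (range 4 to 51050). Control libraries had no deletion read at 113 of 130 member sites in replicate 1 and at 142 of 158 in replicate 2, and the highest control ratio was 5%. A site was called in a replicate with at least 20 reads in each library, under 5% deletions in the control, more than 5 points of level, and p under 0.005 in a two-sided Fisher exact test of chemistry against control.

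By these rules, 61 member sites, in 52 genes, passed in both replicates, or 29.6% of the members, where 56.7% of all sites in the table were. In replicate 1, 106 of the 130 listed members were called, against 86.4% of all sites listed there. In replicate 2, 122 of the 158 listed members were called, against 86.7% of all sites listed there. Fewer than 20 chemistry or control reads were found at 21 listed members of replicate 1 and 32 of replicate 2, and such sites could not be called. The shares were not tested against each other. For off-target edits, the study's methods set the same limits of control ratio and of p between chemistry and control. Their limit of 5 points was on the difference between untreated and RESTART v3 samples. No listed member had a level under 5 points or a control ratio over 5%. Some listed sites exceeded 0.005 by the two-sided Fisher exact test used here, such as Ndrg4 position 1966 in replicate 1 (p of 0.00855). A call thus adds little beyond the read minimum and the p limit and is not independent evidence of modification.

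Enough reads for a level in both replicates, at least 20 in all 4 libraries, were present at 65 member sites in 56 genes. Their median level was 13.1%, with quartiles of 7.58% and 22.96% and a range of 5.41% to 93.6%. Under 10% lay 25 sites, 20 lay from 10% to 20%, 13 from 20% to 50%, and 7 at 50% or more. At the 369 sites of the rest of the table with enough reads the median was 31.2%. Of those sites, 337 lay in non-coding transcripts (median 29.1%) and 32 in the coding genes left out (median 65.7%). Most of the 65 member sites thus had a level under 20%, and few reached 50%. The 4 of these 65 sites that were not called were Stmp1 positions 236 to 237, with a control ratio of 5% in replicate 2, and Mtdh position 517, Ndrg4 position 1966 and Mprip position 2751, which missed the p limit in 1 replicate.

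Among the members with enough reads, the more deeply read sites had the lower levels. The 33 sites with under 200 chemistry reads in the shallower replicate had a median level of 20.9%, and 17 of them reached 20%. The 32 sites with 200 reads or more had a median of 8.10%, a highest level of 32.7%, and only 3 at 20% or more. In the rest of the table the medians were 31.2% under 200 reads (185 sites) and 31.3% from 200 reads (184 sites). Without Gm26917, Lars2, Gm46178 and Gm15564, whose reads are very uneven, the rest gave 27.9% and 21.8% for these depth classes. The filters remove low levels at low depth, so the level of the shallow class is set in part by which sites could be listed. The deep class is less affected, and there the members lay lower than the mainly non-coding rest by these medians, without a test.

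**Figure D1:**
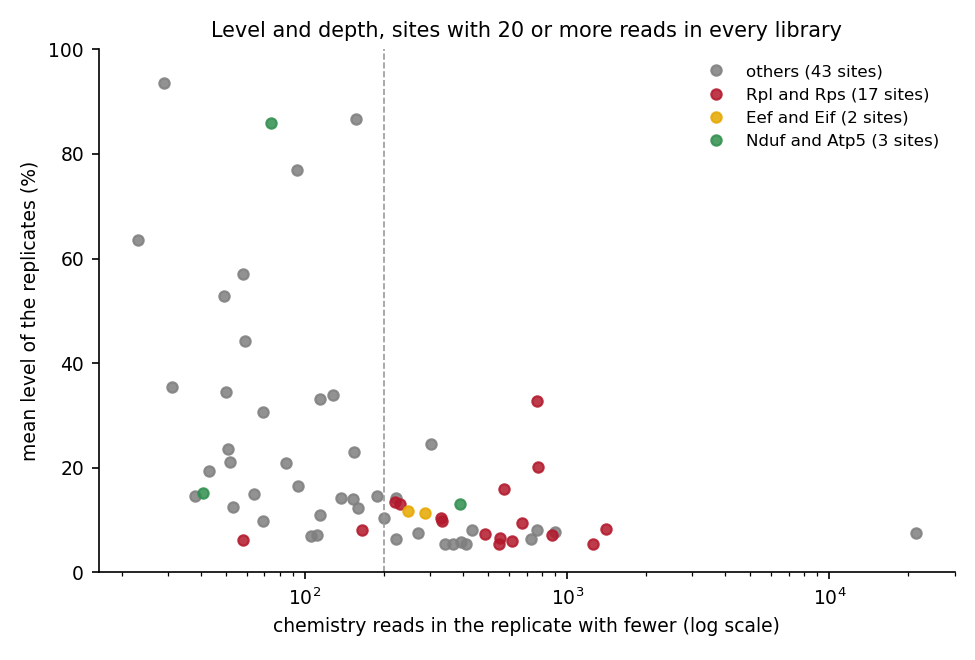
Mean level of the replicates (%) against the number of chemistry reads in the shallower replicate (log scale) for the 65 member sites that had 20 or more reads in every library, coloured by gene family. The dashed line marks 200 reads, to the right of which the highest level is 32.7%.

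Cytosolic ribosomal protein mRNAs held 20 member sites in 16 genes, 9 sites in genes of the large subunit (Rpl) and 11 in genes of the small subunit (Rps). These proteins are made by nearly every cell. Of the 20 sites, 17 had values in both replicates and were called in both, or 85%, against 56.7% of all sites in the table. The 20 sites had median chemistry reads of 1032 and 551.5, against 74 and 64 at the 176 sites outside the named families. A call needs a minimum of reads, and the shares were not tested against each other. The median of the 17 levels was 8.24% (range 5.49% to 32.7%), with 8.34% for the 8 Rpl sites and 8.24% for the 9 Rps sites. Over the 8 of the 17 that were single positions, it was 13.2%. Ribosomal protein sites were also 10 of the 14 members with 500 or more reads in each replicate.

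The highest of them was in Rplp1, an acidic protein of the ribosomal stalk that recruits elongation factors, at position 400 (GRCm39 chromosome 9, coordinate 61820633). Its level was 31.5% in replicate 1 and 33.9% in replicate 2, over 1041 and 767 chemistry reads. The 95% Wilson intervals of the chemistry ratio, 28.9% to 34.5% and 30.8% to 37.5%, overlapped each other and no other ribosomal protein site. Rps23, which reaches into the decoding centre of the small subunit, followed with 20.3% and 19.97% at position 409 (chromosome 13, coordinate 91072705). These were the only members with 500 or more reads in both replicates and a level of 20% or more.

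Rpl14, a protein of the large subunit, had 15.0% and 16.8% at position 109. Rps19, a small subunit protein whose human gene is mutated in Diamond-Blackfan anaemia, had 16.8% and 9.95% at position 648. Its replicates differed more than those of any other ribosomal protein site, at an unadjusted two-sided Fisher exact p of 0.0213 that did not hold after adjustment.

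Rps4x, the X-linked copy of the small subunit protein S4, had 9.02% and 11.8% at positions 580 to 582 and was listed at position 147 in replicate 1 alone (5.68%, over 915 reads). The remaining sites of the large subunit lay close together. Rpl10, which joins late in subunit assembly, had 9.78% and 9.91% at positions 582 to 584. Rpl26 had 9.87% and 8.93% at positions 71 to 72, and Rpl5, which carries the smallest rRNA into the large subunit, had 8.14% and 6.42% at position 527.

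Rpl27a had 7.87% and 6.27% at positions 206 to 208, Rpl18 had 5.68% and 6.90% at positions 420 to 421, and Rpl22 had 5.57% and 5.46% at position 352. Intervals of these sites overlapped, and their order was not tested. Rpl13a was listed at position 111 in replicate 1 alone, at 5.45% over 840 reads. Among the small subunit genes, Rps2 had 7.67% and 8.48% at positions 918 to 919. Rps21 had the lowest called mean of the family, 5.49%, with 5.81% and 5.16% at position 423, over 1807 and 1259 reads. Both of its values lay just above the limit of 5 points. Rpl22 had a mean of 5.52% with overlapping intervals, and the order of Rps21 and Rpl22 was not tested.

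Translation factor genes (Eef and Eif) held 5 sites in 4 genes, of which 2 were called in both replicates. Eef1b2, a subunit of the exchange factor that reloads the elongation factor with GTP, had 14.1% and 9.42% at position 734. Eef2, the GTPase that moves the ribosome along the mRNA, had 12.5% and 10.1% at positions 1289 to 1291. Both means, 11.8% and 11.3%, lay above the median of 8.24% of all 17 ribosomal protein levels. Eef1b2 position 734 lay below the 13.2% of the single positions among them.

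Eef1b2 was also listed at positions 388 to 389 in replicate 2 alone, at 10.9% (95% Wilson interval of the chemistry ratio 7.30% to 15.9%). Eef1g, another subunit of the same exchange factor, was listed in replicate 1 alone at 5.26% (3.215% to 8.501%). Eif4b, which stimulates the initiation helicase, had 72.9% and 85.7% at positions 2986 to 2989, over 48 and 21 chemistry reads. With 10 control reads in replicate 1 this site missed the read minimum, so it has a high listed level without a call.

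Nuclear genes of complex I and ATP synthase (Nduf and Atp5) held 5 sites in 4 genes, with 3 called. Ndufs7, an iron-sulfur subunit of complex I, had the highest level of the named families, 86.0% and 85.6% at positions 109 to 110 of a predicted transcript (chromosome 10, coordinate 80085048). At positions 82 to 83 of that transcript it had 9.76% and 20.5%, over 41 and 78 reads. Its mean of 15.1% moved by more than 1.5 times, to 9.76%, without replicate 2, the only called member for which leaving out a replicate did so.

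Atp5b, the catalytic beta subunit of ATP synthase, had 11.7% and 14.7% at position 1006. Atp5a1 and Atp5c1, the alpha and gamma subunits, were listed in replicate 2 alone, at 6.61% and 6.29%. Their levels in replicate 1 are unknown.

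**Figure D2:**
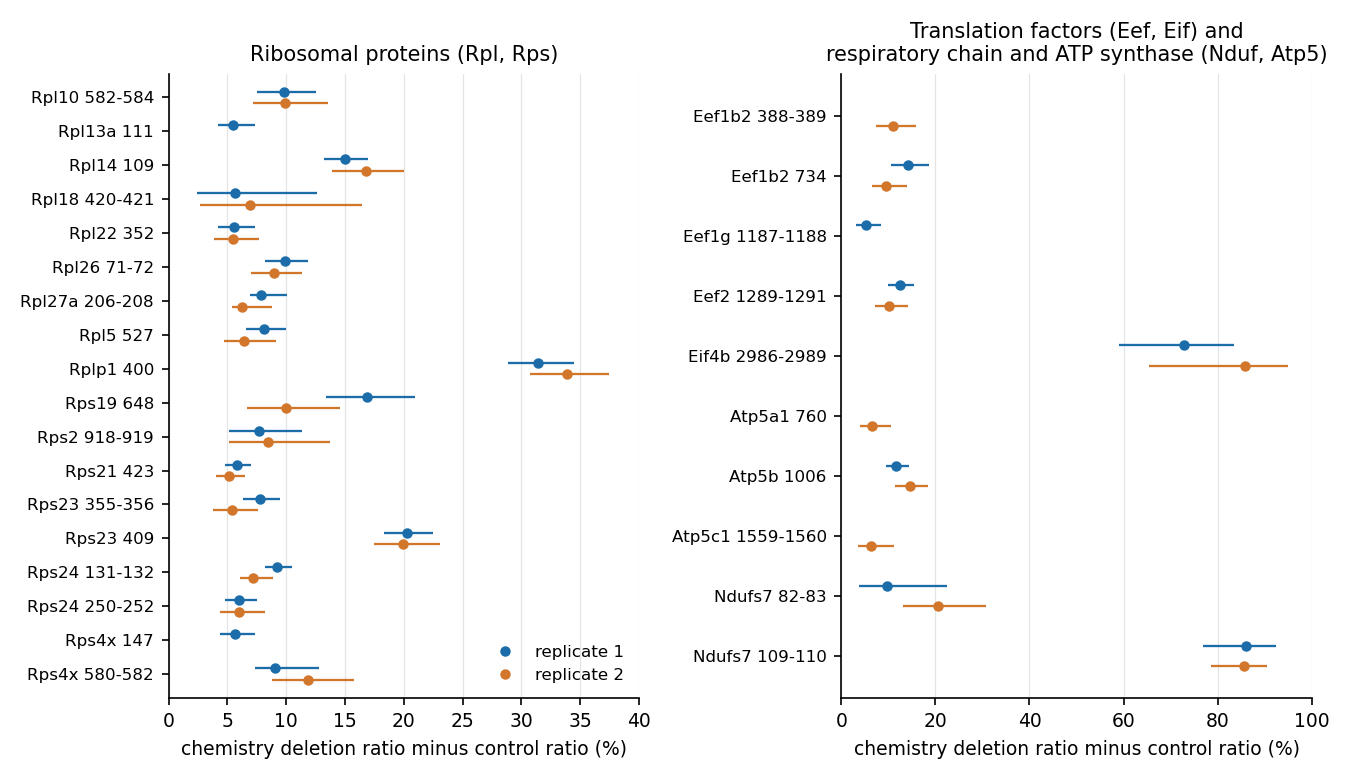
Level (%) in replicate 1 (blue) and replicate 2 (orange) of the member sites described in the Rpl and Rps genes (left, axis to 40%) and in the Eef, Eif, Nduf and Atp5 genes (right, axis to 100%), labelled by gene and transcript position; a missing point is a site not listed in that replicate. Lines are 95% Wilson intervals of the chemistry deletion ratio, and Rplp1 position 400 and Ndufs7 positions 109 to 110 stand above the called sites of their panels.

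The other 176 sites lay in 161 genes. Of these, 59 had values in both replicates and 39, in 33 genes, passed the calling rules in both. The 43 sites with enough reads had a median level of 14.5% (range 5.41% to 93.6%). At 200 or more reads the medians were 9.40% for 15 Rpl and Rps sites and 7.52% for 14 sites of the other genes, so the gap between their overall medians was not seen among deep sites.

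Tshz2, a zinc finger transcription factor of the teashirt family, had the highest level of all members with enough reads, 90.6% and 96.6% at positions 5007 to 5008 (chromosome 2, coordinate 169729381). It rested on 32 and 29 chemistry reads. Arhgef12, an exchange factor that activates RhoA, had 84.0% and 89.2% at positions 5837 to 5838 (chromosome 9, coordinate 42879780) over 332 and 157 reads, the most of any member with enough reads and a level of 50% or more. The intervals of Tshz2 and Arhgef12 overlapped, and their order was not tested.

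Agbl5, a carboxypeptidase that trims glutamate chains from tubulin, had 73.1% and 80.9% at position 141 (chromosome 5, coordinate 31045461). Its second site, positions 176 to 177, had 56.9% and 57.1%. Cytoskeletal and adhesion genes held 17 sites, of which these and 2 more were called. Macf1, a spectraplakin that links actin to microtubules, had 42.9% and 45.8% at position 5250. The median of the 5 sites of the group with enough reads was 57.0%, the highest of any group with more than 2 such sites, and Mprip, which binds myosin phosphatase, had 6.29% and 7.62% without a call in both replicates. As Agbl5 supplied 2 of these 5 sites, the median describes 4 genes.

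The transcription factor list, drawn up here and including coregulators such as Tcf20 and the tubby-like gene Tulp4, held 16 sites, with 5 called at a median of 23.6%. As Tulp4 supplied 2 of these 5 sites, the median describes 4 genes. The Tulp4 mean of 23.6% at positions 1198 to 1199 is itself that median. After Tshz2 came Zfp664, a zinc finger gene, with 46.7% and 59.2% at positions 1635 to 1636. Tulp4 had 25.7% and 21.6% at positions 1198 to 1199 of a predicted transcript, and 11.4% and 10.5% at positions 931 to 933 of another transcript. Tcf20, a transcriptional coregulator, had 8.04% and 6.31% at positions 4831 to 4833. Levels in this group covered nearly the whole range of the members.

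Extracellular matrix and secreted protein genes held 19 sites, of which 8 were called at a median of 23.7%. Col5a1, the alpha chain of a fibril-forming collagen, had 38.9% and 30.0% at positions 7733 to 7734. Lamc1, the laminin gamma chain of most basement membranes, had 35.1% and 32.8% at positions 1541 to 1542. Crim1, a membrane protein that binds bone morphogenetic proteins, had 33.7% and 32.5% at positions 1377 to 1378. These lay within 2 points of each other by their means of 34.4%, 33.9% and 33.1%, which is less than the spread between the Col5a1 replicates.

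Gsn, which severs actin filaments and also has a plasma form, had 24.9% and 24.1% at position 645 over 780 and 303 reads. Igf2, a growth factor of fetal and mesenchymal tissues, had 23.2% and 22.7% at position 2855 and was listed at position 3144 in replicate 1 alone (7.69%). Both had replicates less than 1 point apart. Itih5, a hyaluronan-binding protein, had 12.8% and 17.2% at position 3056 and 16.1% and 11.8% at position 4657. Gpx3, the glutathione peroxidase of plasma, had 6.79% and 8.12% at position 1212. Col1a2, of the main bone collagen, was listed in replicate 2 alone at 6.31% (95% Wilson interval of the chemistry ratio 4.31% to 9.15%).

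Kinase, phosphatase and signalling genes held 11 sites, with 3 called. Stk16, a kinase of the Golgi, had 35.3% and 35.5% at position 539. Wnk1, which regulates chloride cotransporters, had 21.8% and 20% at position 4811. Ppp1ca, a catalytic subunit of protein phosphatase 1, had 6.11% and 10.2% at positions 405 to 406, and was listed at position 378 in replicate 2 alone (5.21%). Stk16 rested on 68 and 31 reads and Ppp1ca on 802 and 433.

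Heme, iron and red cell genes held 9 sites in 6 genes, with 4 called at a median of 8.43%. All but 1 of the called sites belonged to Alas2, the erythroid enzyme that starts heme synthesis. Ftl1, the ferritin light chain, had 6.93% and 5.91% at position 257 over 1200 and 727 reads. Prdx2, a peroxiredoxin abundant in red cells, had 86.1% and 90.9% at positions 1268 to 1269 but only 15 control reads in replicate 1, and 5.47% at position 945 in replicate 2 alone. Blood cells are a part of the tissue as sampled, and their share was not measured here.

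The RNA binding and splicing list, drawn up here and broad enough to include Tpt1 and Rack1, held 15 sites. Of these, 3 were called, all deep and low, and they describe the list and not RNA-binding proteins alone. Pabpc1, which coats the poly(A) tail, had 8.81% and 7.33% at position 944. Tpt1, an abundant growth-related mRNA under translational control, had 7.86% and 7.49% at position 607. Rack1, a scaffold on the small ribosomal subunit, had 6.66% and 6.28% at position 633. Mtdh had 15.0% and 18.1% at position 517 and missed the p limit in replicate 1, at an exact p of 0.00679.

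Chromatin, nuclear envelope and cell cycle genes held 20 sites, as many as the ribosomal protein genes, with 3 called. Ep400, the motor of a chromatin remodelling complex, had 19.0% and 23.1% at positions 878 to 879. Rdm1 had 23.9% and 15.0% at position 27, and its control ratios of 1.99% and 1.29% were among the few of 1% or more. Rrm2b, a ribonucleotide reductase subunit, had 5.71% and 5.13% at positions 1510 to 1511. Of the 20 sites, 11 had a value only in replicate 2 and 4 only in replicate 1, so most of the group has a level from 1 sample only.

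The remaining lists had few sites called in both replicates, where 29.6% of all members and 56.7% of all sites in the table were. Median chemistry reads in replicates 1 and 2 were 44 and 23 in the metabolic list, and 49 and 39 in the membrane traffic list. In the immune list 2 of 7 sites were called, B2m, the invariant chain of MHC class I molecules, with 14.7% and 10.1% at position 748, and Prg2, the eosinophil granule major basic protein, with 5.42% and 5.41% at positions 756 to 758. In the metabolic list 2 of 17 were called, the mitochondrial aminotransferase Got2 with 11.8% and 13.2% at position 2332 and the transketolase Tkt with 5.26% and 6.35% at positions 895 to 896. The chaperone list had 1 of 6, Ahsa1, an activator of Hsp90, with 13.7% and 14.6% at positions 482 to 483. The neuronal list had 1 of 9, the microtubule protein Map1a with 10.6% and 18.4% at position 3124. None of the 13 sites in membrane traffic genes had values in both replicates, so none could be called in both, though some were called where listed. Among genes on no list, Dcaf6, a substrate receptor of a ubiquitin ligase, had 33.7% and 27.5% at positions 1049 to 1050.

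Gm41607, a predicted gene, stood apart in depth. At position 6008 of its predicted transcript it had 7.89% and 7.27% over 21359 and 51050 chemistry reads, the most of any member. At position 6025, only 17 positions on, it had 14.6% and 14.0% over 222 and 566 reads. The controls followed the same pattern, with 40925 and 24652 reads at the first position and 524 and 313 at the second. The counts were this far apart within the length of a read, and whether they derive from this transcript or from a similar sequence elsewhere was not tested.

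**Figure D3:**
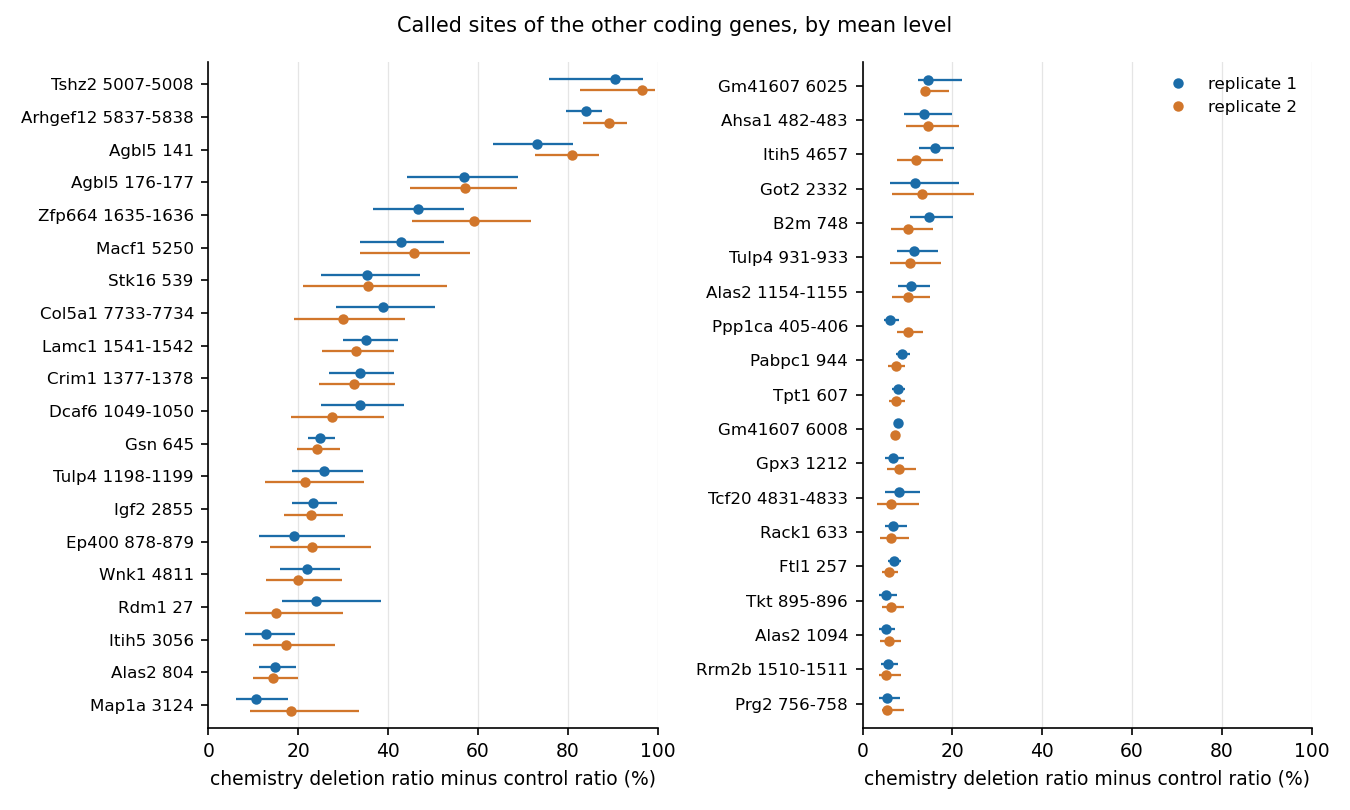
Level (%) in replicate 1 (blue) and replicate 2 (orange) of the 39 sites of other genes called in both replicates, ordered by mean level in 2 columns with the higher levels at left. Lines are 95% Wilson intervals of the chemistry deletion ratio; levels run from 93.6% for Tshz2 to 5.41% for Prg2, and intervals widen toward the high, less deeply read sites.

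Where both listed a site with enough reads, the replicates ranked the sites alike. Over these 65 sites, Pearson's r between replicates was 0.98 and Spearman's rho 0.93, given as a description because sites share libraries. Only sites that passed the authors' filters in both replicates enter here. The 124 members listed in 1 replicate do not, so these values can overstate the agreement over all members. The SD of the difference was 4.02 points, against 6.38 points over the 369 other sites, and 54 of the 65 lay within 5 points and 62 within 10. From 200 reads these SDs were 2.18 and 3.02 points. The members' levels were also lower, with a median of 13.1% against 31.2%, and sites were not matched for level, so the SDs do not rank the groups by reproducibility. Replicate 2 was lower at 35 sites and higher at 30. The largest difference was at Zfp664, 12.5 points, followed by Ndufs7 positions 82 to 83, 10.8 points, and Stmp1, which encodes a short mitochondrial membrane protein, with 58.3% and 68.9%. Col5a1 and Rdm1 were next, each lower by 8.9 points in replicate 2.

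Chemistry reads of the replicates were set against each other by Fisher's exact test (two-sided) at the 70 members with 20 or more of them in each. Of these, none passed an adjusted p of 0.05 (Benjamini-Hochberg over the whole table), where 2.27% of all sites tested did. At an unadjusted p under 0.05 there were 4 members, Gm41607 position 6008, Ppp1ca positions 405 to 406, Rps19 position 648 and Rps24 positions 131 to 132. The smallest was 0.00484 for Gm41607, adjusted to 0.102, over a difference of under 1 point. A difference of a few points at the less deeply read sites was not detectable with these reads.

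**Figure D4:**
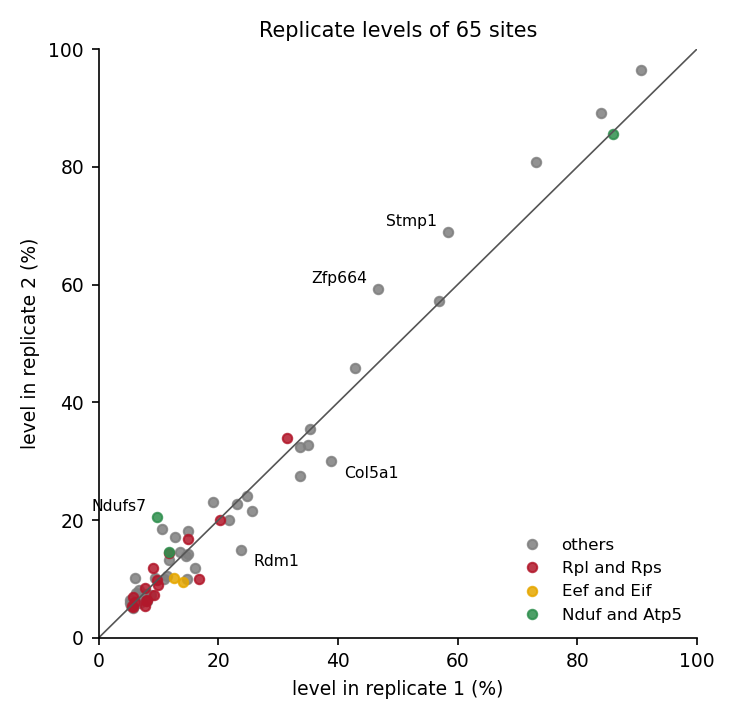
Level in replicate 2 (%) against level in replicate 1 (%) at the 65 member sites that had 20 or more reads in every library, coloured by gene family, with the line of equal levels. The 5 sites with the largest differences are named, and 62 points lie within 10 points of the line.

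In 20 genes there were 2 or more member sites, 41 sites in all and at most 3 in a gene. Neighbouring sites of the same transcript could be compared within each sample, by Fisher's exact test (two-sided) of their chemistry reads with adjustment over all pairs of the table. This was possible for 8 pairs in 7 transcripts. Of these, 4 differed in both replicates, where 72.1% of all pairs in the table did. In 6 of the pairs the sites lay closer than the 150 bases of a read, so that some reads cover both and the counts are not independent.

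The widest gap was in Ndufs7, where positions 82 to 83 had chemistry deletion ratios of 9.76% and 20.5%, against 86.5% and 85.6% at positions 109 to 110, over a span of 28 positions. The adjusted exact p was 4.86e-16 in replicate 1 and 4.36e-21 in replicate 2. The Rps23 transcript had 7.78% and 5.42% at positions 355 to 356, against 20.3% and 20.1% at position 409. The adjusted exact p was 3.56e-19 in replicate 1 and 3.58e-15 in replicate 2. In both transcripts the downstream site was the more modified.

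Alas2 was the only gene with 3 sites. At position 804 the ratio was 14.9% and 14.3%, against 5.16% and 5.85% at position 1094, a difference past the test in both replicates (adjusted exact p of 7.68e-06 and 0.0019). Position 1094 against positions 1154 to 1155, with 10.9% and 10%, passed in replicate 1 only, at an adjusted exact p of 0.00441, and gave 0.0841 in replicate 2. The outer sites of Alas2 were thus higher than the middle one by their values, and for the downstream pair in 1 replicate by the test.

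Gm41607 was the other pair to differ in both replicates, with ratios of 7.92% and 7.31% at position 6008, against 16.7% and 15.9% at position 6025, and with the uneven reads given above. Agbl5 position 141 lay above positions 176 to 177 by 16.2 points in replicate 1 (adjusted exact p of 0.065) and by 23.7 points in replicate 2 (0.00195). Rps24 had 9.26% and 7.36% at positions 131 to 132, against 6.005% and 6.02% at positions 250 to 252, and passed in replicate 1 only. Itih5 changed direction between replicates and passed in neither.

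**Figure D5:**
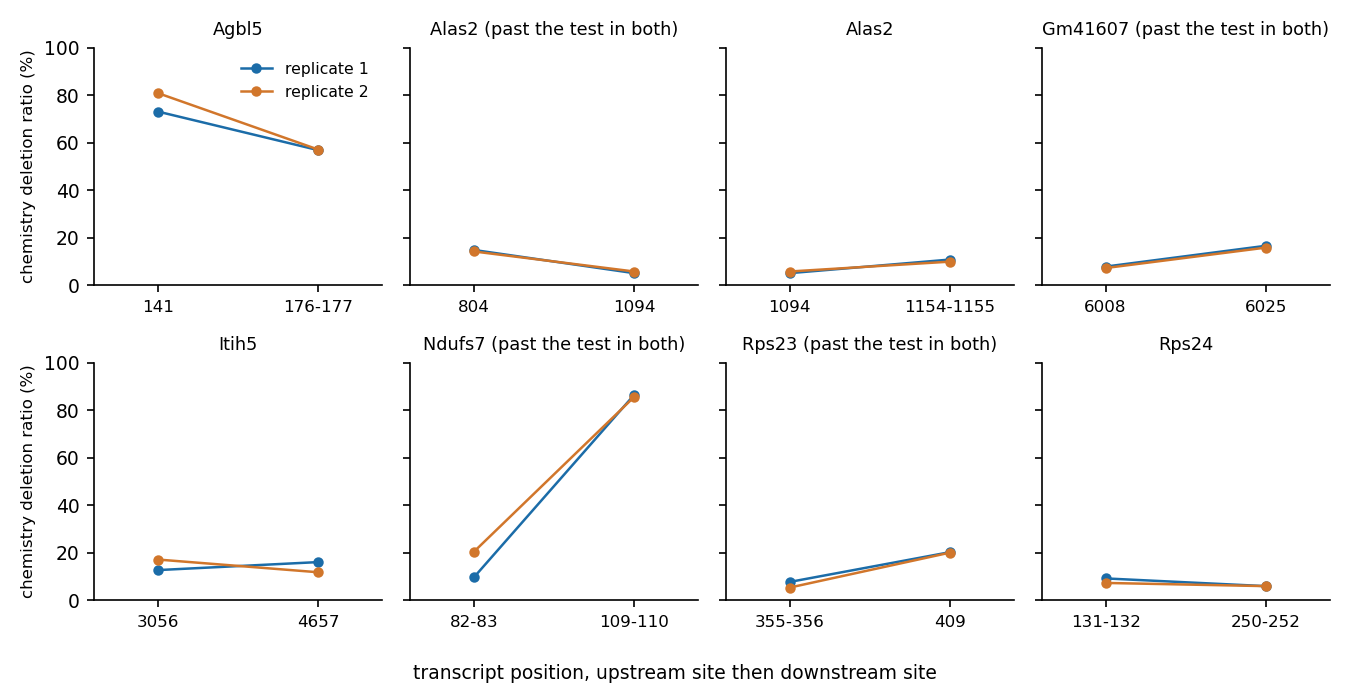
Chemistry deletion ratio (%) at the upstream and the downstream site of the 8 pairs of neighbouring sites, in replicate 1 (blue) and replicate 2 (orange). Ndufs7 has the steepest line, and the 4 pairs that differed in both replicates are marked in the panel titles.

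Sites listed in 1 replicate only made up 124 of the 206 members. In 27 of them a library had fewer than 20 reads, with a median level of 62.5%. The other 97 had a median of 11.6%, with 41 under 10%, and 94 of these 97 met the calling rules where listed. That share is not a separate check, because the limits of level, control ratio and p repeat those in the study's methods. Over all 124 sites, the chemistry reads had a median of 64, against 152 per site listed in both. The deepest were Rps4x position 147, Rpl13a position 111 and Col1a2 position 2874, all under 7%. A further group was high in both replicates but short of reads. Gabpb2, a subunit of a nuclear respiratory transcription factor, had 95.0% and 94.1% at positions 4417 to 4418 over 8 control reads in replicate 1, and Gtf2e2, a subunit of a general transcription factor, had 92.9% and 83.3% at positions 59 to 60 over 4.

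Some of the genes with a member site also house a small nucleolar RNA (snoRNA) gene, a class that includes the guides of Ψ synthesis in rRNA. By the bounds in the RefSeq gene table, 16 of the 185 genes (8.65%) contained at least 1 annotated snoRNA gene, against 394 of 21900 protein-coding genes in that table (1.80%). They were 5 of the 16 Rpl and Rps genes, 2 of the 4 Eef and Eif genes, 2 of the 4 Nduf and Atp5 genes and 7 of the 161 others. The rule had left out some coding genes that host snoRNA genes, such as Taf1d and Rabggtb, so the members' share is set in part by that choice. The comparison is a description, since genes were also not matched for expression, on which both detection of a site and the presence of a snoRNA gene may depend.

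In 7 of these genes, the table also listed a site in another transcript of the same strand within 3000 bases, in 12 neighbouring genes in all. Rpl13a position 111 had 5.45%, listed in replicate 1 alone, while Snord32a position 27, which lies 67 bases away, had 53.3% and 48.6%. Atp5b position 1006 had 11.7% and 14.7%, and Snord59a, 2160 bases away, had 78.6% and 78.3% at positions 29 to 31. Rpl5 position 527 had 8.14% and 6.42%, and the snoRNA gene Gm22270, 1509 bases away, had 92.6% and 89.7% at position 85. These small RNA sites lay far above the mRNA site, but not every such site did. In Rpl13a, Snord34 had 5.74% and 6.82% at positions 32 to 34 over 925 and 1948 reads, close to the 5.45% of position 111, and 19.6% and 16.9% at positions 20 to 21. Eef1b2 position 734 differed less, with 14.1% and 9.42%, against 15.6% and 35.9% over 45 and 49 reads at Snora41 positions 60 to 62. Whether reads of a precursor that holds the small RNA add to the mRNA site was not tested.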

How the data were processed

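PRAISE libraries were made from cochlear RNA with a stranded total RNA kit. The study's methods give rRNA removal before fragmentation, while the labels name polyA RNA. The submitters' processing notes name cutadapt 4.2, UMI-tools 1.0.0 and GRCm39. The authors trimmed read 2, removed identical reads, thinned libraries to a common size and aligned to RefSeq transcripts with PRAISE-tool.

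As deposited, the counts per site and library were the reads with a deletion and all reads, not normalized. The deposited level was a fraction, the chemistry deletion ratio minus the control ratio, and recomputation from the counts gave the same values. Columns of the authors' own test (p-values) and their ratios were not used.

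Here Python 3.11.15, SciPy 1.17.1 and pandas 2.3.3 gave two-sided Fisher exact tests and Wilson 95% intervals, taken for counting error alone. The tests were checked on simulated data. Replicate and pair tests were adjusted over the whole table at 0.05. Families and 12 further gene lists grouped the members. Named sites were all family members, transcripts with several sites, the 10 highest other called sites, up to 3 called per list, the 5 largest replicate differences and the 3 deepest sites of 1 replicate, and others named were chosen after their values were seen. Members and lists were chosen with earlier results of these data known. Values of 1 gene are not reported here, though they count in the totals and medians. Sequence context, coding regions and untranslated regions were not analysed here, so a site is given by its transcript position alone. Gene types and snoRNA positions came from a RefSeq table of GRCm38.p6, used for names and neighbourhood only.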

Additional observations from a re-analysis of the deposited data

How the results depend on the processing

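Of the 61 members called in both replicates, 33 remained past a level limit of 10 points, while 73 and 50 were called with minimums of 10 and 50 reads, 61 with adjusted p-values and 59 with a control limit of 1%. Requiring 1 replicate alone gave 106 to 122. The authors' filters came first, so the unchanged 61 with adjusted p-values is no independent check of the calls. The median level of 13.1% became 14.5% with a minimum of 10 reads, 10.4% with 50, 13.2% without subtraction of the control, 12.4% with 1 site per gene and 13.3% over single positions, and ranged from 11.76% to 11.84% when a replicate was left out. At a minimum of 50 reads the Nduf and Atp5 median became 49.5%, over 2 sites, and that of the other genes 10.97%, below the 11.5% of Eef and Eif. No member passed the replicate test with minimums of 10 or 50 reads or with adjustment over coding sites only. Among the 8 pairs, 4 differed in both replicates, 5 to 6 with a replicate left out, 3 of 7 at 50 reads, and 1 of the 2 with sites at least 150 positions apart. Without subtraction of the control, 63 of 65 site levels moved by less than their replicate SD, and the largest shift was 2.50 points. No paired analysis was possible because values of a second group were not analysed here, so the comparison with RESTART v3, with or without the replicate block, was not run. Depth limits the low levels, since a site with few reads could be listed only at a high level.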
